A study of Rattus norvegicus with 8 samples.

Results

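The genes described here are 9 genes of V(D)J recombination and of the pre-T cell receptor, Rag1, Rag2, Dntt, Ptcra, Prkdc, Xrcc4, Xrcc5, Xrcc6 and Lig4, in rat primary thymocytes undergoing glucocorticoid-induced apoptosis. They were taken as a pathway, by gene name on the array, with earlier results of these data known, and they account for 13 of 41012 probes and 9 of 35561 gene names. Thymocytes from adrenalectomized male Sprague-Dawley rats were cultured for 6 hours without hormone (Control, 4 arrays) or with 100 nM of dexamethasone, a synthetic glucocorticoid (Dex, 4 arrays). No genetic modification is named for either group, the age of the animals is not given in the sources used here, and adrenalectomy, which removes the main source of the animals' own glucocorticoid, was common to both groups. Each cell preparation combined the thymi of 3 rats, and cells were not sorted, so the RNA came from all cells of the suspension. The study's text speaks of 3 biological replicates, whereas 4 arrays per group were analysed here. Because nothing states that the 4 arrays came from separate preparations, the p-values measure the spread between these arrays, which may be technical in part.

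A thymocyte assembles its antigen receptor genes by V(D)J recombination. Rag1 and Rag2 form the recombinase that cuts DNA at recombination signals, and Dntt encodes terminal deoxynucleotidyl transferase, which adds untemplated nucleotides to the cut ends. Xrcc6 and Xrcc5 encode the small and the large subunit of Ku, the ring that binds broken DNA ends, and Prkdc encodes the catalytic subunit of the DNA-dependent protein kinase that Ku recruits. Lig4 encodes the DNA ligase that seals the break together with its partner Xrcc4. Ptcra encodes pre-TCR alpha, the invariant chain that pairs with a newly made TCR beta chain before the alpha locus has rearranged. Double positive thymocytes, which carry both Cd4 and Cd8 and form most of the thymus, rearrange the alpha locus and are known for their sensitivity to glucocorticoids.

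Each probe is an oligonucleotide of 60 bases. The probes for Rag1, Rag2, Dntt and Ptcra are shown because these genes are restricted to developing lymphocytes, and because each of the last 3 was read by this single probe. They are written 5′ to 3′ as the scanner files give them, with no letters marked.
Rag1, probe 1 (A_44_P121249): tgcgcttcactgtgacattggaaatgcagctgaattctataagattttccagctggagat
Rag1, probe 2 (A_43_P16183): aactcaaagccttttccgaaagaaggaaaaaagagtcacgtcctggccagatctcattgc
Rag2 (A_44_P391336): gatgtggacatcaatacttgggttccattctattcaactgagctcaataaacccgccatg
Dntt (A_44_P189773): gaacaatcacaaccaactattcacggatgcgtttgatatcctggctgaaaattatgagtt
Ptcra (A_44_P102570): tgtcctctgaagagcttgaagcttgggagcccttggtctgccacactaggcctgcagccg
In genome build rn3, to which the scanner files refer, the Rag1 probes lie at chr3:86681216-86681275 and chr3:86683187-86683246 on the minus strand and the Rag2 probe at chr3:86667806-86667865 on the plus strand. The Rag genes are neighbours, and 13350 bases separate the Rag2 probe from the nearer Rag1 probe. Ptcra is read at chr9:10095804-10095863. The Dntt probe spans 720 bases of genome from chr1:246325556 to chr1:246326275, as a probe does that crosses an exon junction. The same holds for both Prkdc probes (968 and 3100 bases) and for the Xrcc4 probe (1133 bases), and the remaining probes lie within 60 bases of genome. The files give no exon or UTR annotation for these positions. The GC content of the 13 probes ran from 35% to 60% with a median of 41.7%, against a median of 43.3% over all probes, and the Ptcra probe has the highest.

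Every one of the 13 probes was well above background on all 8 arrays, and no spot was saturated. Signals are given as log2 of the processed intensity after quantile normalization between arrays, so that a difference of 1 is a doubling, and a gene is represented by its brightest probe. The number of probes well above background ran from 24937 to 34488, and Control 1, Dex 1 and Dex 2 had the fewest, at most 28684 against at least 33172 on the other 5 arrays. Control 1 shared a slide with Dex 3, Control 2, 3 and 4 lay on another slide and Dex 1, 2 and 4 on a further slide, so that slide and treatment cannot be told apart except in the difference of Dex 3 from Control 1. The median SD of a probe was 0.28 in Control and 0.50 in Dex.

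All 9 genes had a lower mean log2 signal in Dex than in Control, with a median difference of -0.35 where the median over all probes was 0.00. By limma 0 of the 9 passed an adjusted p of 0.05, against 0.778% of all probes in either direction and 0.215% in the lower direction. At an unadjusted p under 0.05 there were 2, Rag1 and Ptcra, where 4.92% of all probes passed on the lower side. In 1 gene, Ptcra, the 4 Dex arrays lay below all 4 Control arrays, as did 4.5% of all probes. The signal to noise statistic of the study's methods, at a one-tailed p of 0.01 and a fold change of 1.2, called 1 of the 9, again Ptcra, where it called 3.2% of all probes in this direction. The median difference of the 9 genes was -0.22 without Dex 4. It was -0.57 with Control 1, Dex 1 and Dex 2 left out together, an alternative added after the data were seen, in which limma called 0 of the 9 beside 11.4% of all probes. The plot of signals by array shows the 9 genes with their spread.

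**Figure D1:**
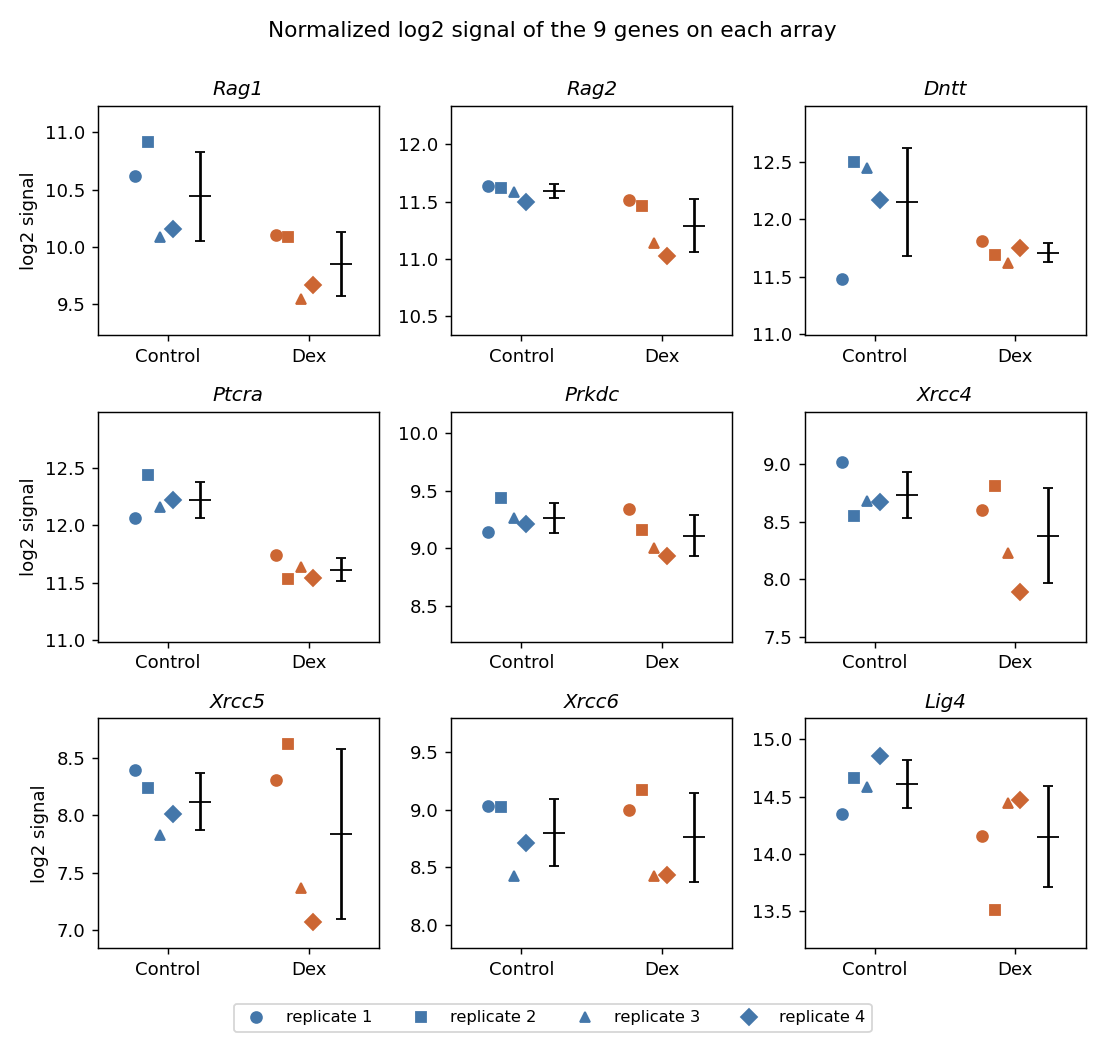
Normalized log2 signal of the brightest probe of each gene on the 8 arrays, with Control in blue, Dex in orange and a marker shape for each replicate number; the bars give the mean and SD of 4 arrays, and every panel spans the same height. Ptcra is the only panel in which no Dex array reaches the lowest Control array, and the Control arrays of Dntt and the Dex arrays of Xrcc5 spread widely.

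Ptcra, the pre-TCR alpha gene, had log2 signals of 12.06, 12.44, 12.16 and 12.22 on Control arrays 1 to 4 and of 11.74, 11.53, 11.64 and 11.54 on Dex arrays 1 to 4. The highest Dex array was 0.32 below the lowest Control array, and the arrays within either group lay close together. The mean was 12.22 ± 0.16 (SD, n = 4) for Control arrays and 11.61 ± 0.10 (SD, n = 4) for Dex arrays, a difference of -0.61 with a standard error of 0.15 and a 95% interval from -0.95 to -0.26, which puts the Dex signal at 65.6% of Control. limma gave an unadjusted p of 0.00341 and an adjusted p of 0.154 over all probes, and the gene ranked 907 of all probes by p. The exact two-sided permutation test over the 70 assignments of arrays gave p = 0.0286, the smallest value it can give. That test does not use the replicate numbers, and limma with the replicate number as a block gave an unadjusted p of 0.0146 and an adjusted p of 0.296. The call depended on the processing. limma's adjusted p was 0.0237 with normexp background correction and 0.0204 with the slide as a random block, within a range of 0.0204 to 1 over all alternatives. These settings called 2.22% and 4.48% of all probes, against 0.778% as reported. The random block used a correlation within slides of -0.235. Within the slide that held both groups, Dex 3 was lower than Control 1 by a difference of -0.42. In a suspension of mixed cells, fewer cells that carry Ptcra RNA and less of this RNA per cell cannot be told apart.

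Rag1, the subunit that holds the cutting site of the recombinase, had a lower mean in Dex by a difference almost as large, with a wider spread. On probe 1 the log2 signals were 10.62, 10.91, 10.09 and 10.16 on Control arrays 1 to 4 and 10.10, 10.09, 9.55 and 9.67 on Dex arrays 1 to 4. Dex 1 and Dex 2 were level with Control 3 and Control 4, so the groups touched, although each Dex array was lower than the Control array of its own number. The mean was 10.44 ± 0.39 (SD, n = 4) for Control arrays against 9.85 ± 0.28 (SD, n = 4) for Dex arrays, a difference of -0.59 with a 95% interval from -1.15 to -0.03, or 66.4% of Control. The adjusted p was 0.436 by limma, and the exact two-sided permutation p was 0.0857. On the slide shared by both groups the difference of Dex 3 from Control 1 was -1.07.

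The second Rag1 probe gave a smaller difference. Its log2 signals were 10.24, 10.54, 9.98 and 10.07 in Control and 10.07, 10.11, 9.65 and 10.09 in Dex, so only Dex 3 lay outside the Control range. The difference was -0.22 with a 95% interval from -0.66 to 0.21 and an adjusted p of 0.744 by limma. With the mean of both probes in place of the brighter one, the Rag1 difference was -0.41. The intervals of the probes overlap over most of their length, and whether the probes differ was not tested.

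Rag2, the partner that Rag1 needs in order to cut, had the tightest Control values of the 9 genes, 11.64, 11.62, 11.58 and 11.50. Its Dex values were 11.51, 11.46, 11.14 and 11.03. Dex 1 lay just inside the Control range and the other 3 Dex arrays lay below it. Control averaged 11.59 ± 0.06 (SD, n = 4) and Dex 11.29 ± 0.23 (SD, n = 4), a difference of -0.30 with a 95% interval from -0.68 to 0.07, or 81.2% of Control. limma gave an adjusted p of 0.591 and the exact two-sided permutation test p = 0.0571. Across the 20 alternative settings the Rag2 difference stayed between -0.50 and -0.22.

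Dntt, the enzyme that adds untemplated nucleotides to receptor gene junctions, had log2 signals of 11.48, 12.50, 12.45 and 12.17 in Control and 11.81, 11.69, 11.62 and 11.75 in Dex. Control 1 was lower than every Dex array, while the other 3 Control arrays were higher than every Dex array. Control averaged 12.15 ± 0.47 (SD, n = 4) and Dex 11.71 ± 0.08 (SD, n = 4), a difference of -0.44 with a 95% interval from -0.99 to 0.12, or 73.9% of Control. The adjusted p was 0.598 by limma, and the exact two-sided permutation p was 0.143. Control 1 decided the size of this value: without it the difference was -0.66, with an adjusted p of 0.246 by limma, where the adjusted p ran from 0.0580 to 1 over all alternatives. On the slide that Control 1 shared with Dex 3 the difference turned to 0.13. Control 1 also had the lowest probe count well above background of the Control group, 28684. In Dex this count was 26496 and 24937 on Dex 1 and Dex 2, where Dntt read 11.81 and 11.69. It was 33301 and 33426 on Dex 3 and Dex 4, where Dntt read 11.62 and 11.75. The part of the count in the result was not tested.

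Among the end-joining genes, Xrcc4 and Lig4, which act together at the ligation step, behaved differently by array. The Xrcc4 log2 signals were 9.02, 8.55, 8.68 and 8.67 in Control and 8.60, 8.81, 8.23 and 7.89 in Dex. Dex 3 and Dex 4 were below every Control array, and Dex 1 and Dex 2 were not. The difference was -0.35 with a 95% interval from -0.88 to 0.18, or 78.5% of Control, with an adjusted p of 0.678 by limma. It was -0.18 without Dex 4 and -0.78 with the slide as a fixed block.

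Lig4 was read by 3 probes on chromosome 16, and all 3 had their lowest value on the same array. On the brightest probe the log2 signals were 14.35, 14.66, 14.58 and 14.85 in Control and 14.16, 13.51, 14.44 and 14.47 in Dex. Dex 2 was the lowest and Dex 1 the next, while Dex 3 and Dex 4 lay inside the Control range. The difference was -0.46 with a 95% interval from -1.03 to 0.10, or 72.5% of Control, with an adjusted p of 0.577 by limma and an exact two-sided permutation p of 0.0857. The probe A_44_P998234 gave -0.63 with an interval from -1.18 to -0.08 (adjusted p of 0.392 by limma), and the probe A_44_P309325 gave -0.68 with an interval from -1.31 to -0.04 (adjusted p of 0.440 by limma). The low value of Dex 2 was thus seen on all 3 probes, at 13.51 against a Control minimum of 14.35, at 12.23 against 13.21 and at 10.11 against 11.24. With the mean of the 3 probes the Lig4 difference was -0.59. Without Dex 2 the difference of the brightest probe was -0.25, and with the slide as a fixed block it was 0.09.

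The Ku subunits held the smallest difference (Xrcc6) and the widest spread of Dex arrays (Xrcc5) of the 9 genes. Xrcc5 had log2 signals of 8.40, 8.24, 7.83 and 8.01 in Control and of 8.31, 8.62, 7.37 and 7.07 in Dex. Its Dex arrays formed a higher pair, Dex 1 and Dex 2, and a lower pair, Dex 3 and Dex 4, with an SD of 0.74. The difference was -0.28 with a 95% interval from -1.10 to 0.55 and an adjusted p of 0.844 by limma. Single arrays decided it, as it was -0.02 without Dex 4, -0.12 without Dex 3, -0.18 without Control 1, -0.43 without Dex 1 and -0.54 without Dex 2, and it was -1.03 with the slide as a fixed block. Xrcc6 had log2 signals of 9.03, 9.02, 8.42 and 8.71 in Control and of 9.0, 9.17, 8.42 and 8.43 in Dex. The groups covered almost the same range, and the difference was -0.04 with a 95% interval from -0.60 to 0.52 and an adjusted p of 0.970 by limma. The sign of the Xrcc6 difference was not stable, as it was 0.04 with median centring in place of quantile normalization and 0.05 with the slide as a random block, but -0.61 with the slide as a fixed block and -0.29 without Control 1, Dex 1 and Dex 2.

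Prkdc, the kinase subunit, was read by a bright and a dim probe that gave opposite signs. On the bright probe the log2 signals were 9.14, 9.44, 9.26 and 9.21 in Control and 9.34, 9.16, 9.0 and 8.93 in Dex. The groups overlapped, with a difference of -0.16, a 95% interval from -0.52 to 0.21 and an adjusted p of 0.794 by limma. On the dim probe the signals were 4.91, 4.96, 4.65 and 4.74 in Control and 5.25, 5.43, 4.64 and 4.68 in Dex. Dex 1 and Dex 2 were above every Control array, and the difference was 0.19 with an interval from -0.32 to 0.70 and an adjusted p of 0.826 by limma. With the mean of both probes the Prkdc difference was 0.02. Without Control 2 or without Dex 4 the difference of the bright probe was -0.09 and -0.10.

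**Figure D2:**
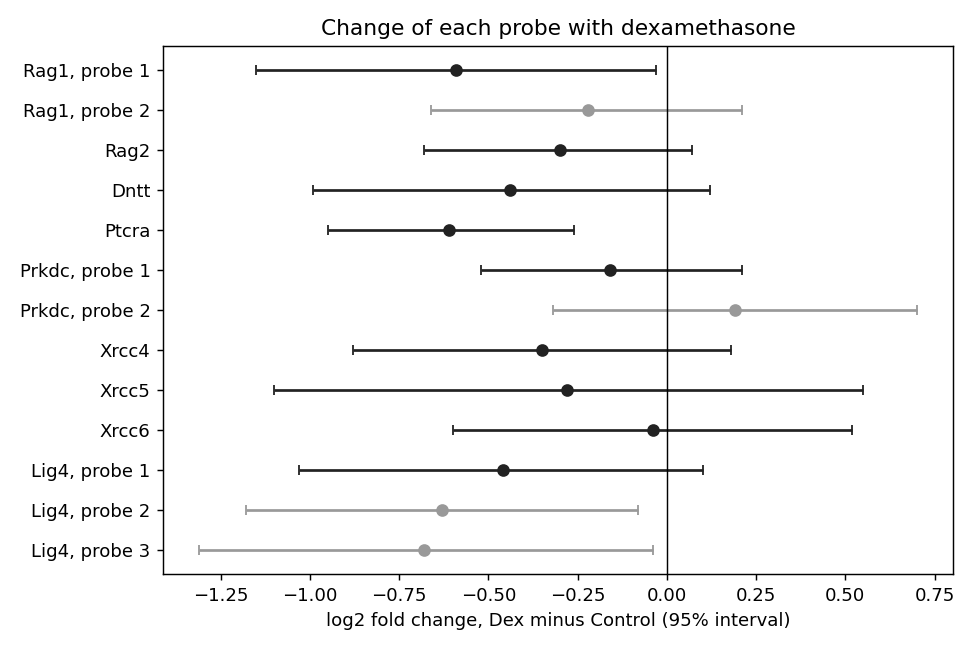
Difference of the mean log2 signal, Dex minus Control, for each of the 13 probes, with 95% intervals from limma; black marks the brightest probe of a gene and grey its other probes. All black points lie below 0, and among them only the intervals of Rag1 (-1.15 to -0.03) and Ptcra (-0.95 to -0.26) do not reach 0.

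**Figure D3:**
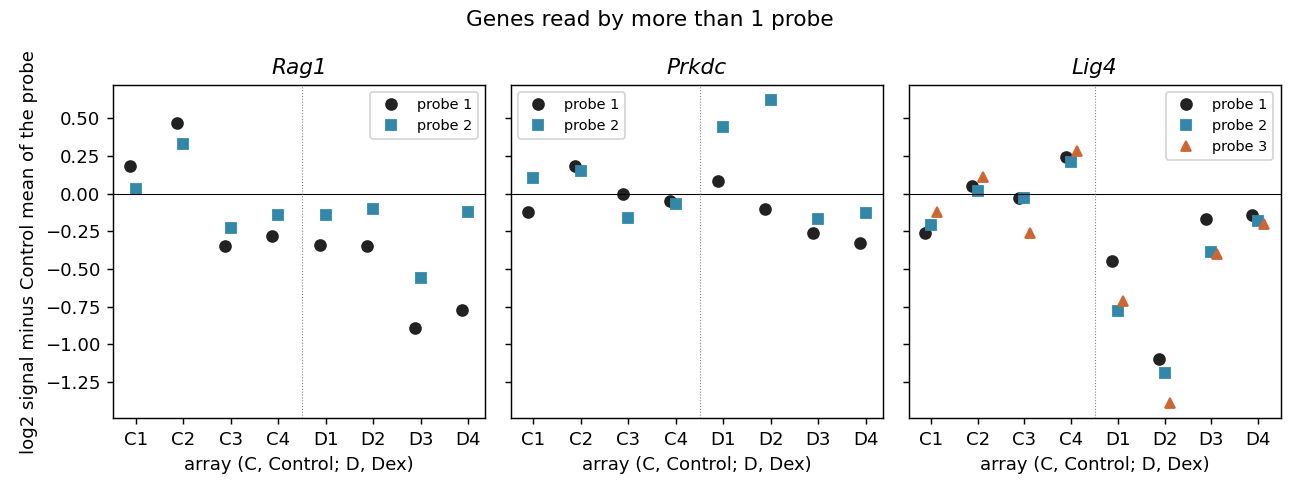
Log2 signal of every probe of Rag1, Prkdc and Lig4 on each array, minus the Control mean of the same probe; C1 to C4 are Control arrays and D1 to D4 Dex arrays. The 3 Lig4 probes all have their lowest point on Dex 2, and the Prkdc probes part on Dex 1 and Dex 2.

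The order of the replicates was examined next. In Dex, replicates 3 and 4 were both below replicates 1 and 2 for 6 of the 9 genes, Rag1, Rag2, Prkdc, Xrcc4, Xrcc5 and Xrcc6, where 48.3% of all probes showed this order. In Control the same order was found for 4 of them, Rag1, Rag2, Xrcc5 and Xrcc6, against 27.5% of all probes. Dntt and Ptcra did not show it in either group, and Lig4 ran the other way in Dex. This split of the replicates was chosen after the values were seen. It ran with the count of probes well above background in Dex, which was 26496 and 24937 on Dex 1 and Dex 2 and 33301 and 33426 on Dex 3 and Dex 4, and the part of that count in the result was not tested. In deviations from the group means over the 8 arrays, Pearson's r was 0.91 between Xrcc4 and Xrcc5, 0.93 between Xrcc5 and Xrcc6, 0.94 between Rag2 and Xrcc5 and 0.67 between Rag1 and Rag2. Lig4 had an r of -0.85 with its partner Xrcc4, and Dntt and Ptcra had an r of 0.66. These coefficients describe 8 arrays that share slides and normalization, and no p is given for them.

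With a block that sets replicates 1 and 2 apart from replicates 3 and 4, an alternative added after the data were seen, the lowest adjusted p by limma were 0.0786 for Rag1 (0.0786 to 1 over all alternatives) and 0.0853 for Ptcra, and none of the 9 genes was called. In the pairing by replicate number, Rag1, Rag2, Ptcra and Lig4 were lower in Dex in all 4 pairs, as were 11.4% of all probes. The sources used here do not state that arrays of the same number were paired. The Rag1 pairs differed by -0.53, -0.82, -0.54 and -0.48. The Ptcra pairs differed by -0.32, -0.90, -0.52 and -0.68. Dntt, Prkdc, Xrcc4 and Xrcc5 were lower in 3 pairs and Xrcc6 in 2. The Dntt pairs differed by -0.82, -0.83 and -0.42 for replicates 2 to 4 and by 0.33 for replicate 1.

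The 3 genes most like each lymphocyte-restricted gene were sought among 8312 genes by Pearson's r over the 8 arrays. As the highest of 8312 values were picked, a high r follows in part from the choice. What r such a choice gives for unrelated genes was not tested. Rag1 and Rag2 also had the replicate order that 48.3% of all probes showed in Dex. Rag1 was followed most closely by Abca7, a lipid transporter (r = 0.990), Atp6v1f, a subunit of the vacuolar proton pump (r = 0.979), and Trappc1, a vesicle transport factor (r = 0.977). Rag2 was followed by the deubiquitinase Usp47 (r = 0.996), by Mterfd3, now named Mterf2 (r = 0.993), and by the ubiquitin ligase Rnf111 (r = 0.992). These 6 genes kept an r of at least 0.95 in deviations from the group means, and limma called none of them. Dntt was followed by the transcriptional repressor Bcl6 and by Fxr2h, now named Fxr2, both at r = 0.938, and by Sbf1 at r = 0.935. Ptcra was followed by the protocadherin Pcdh9 (r = 0.989), by Mns1 (r = 0.982) and by the class I histocompatibility gene RT1-N1 (r = 0.981). Their differences were larger than that of Ptcra, at -0.89 for Pcdh9 (adjusted p of 0.0647 by limma), -1.37 for Mns1 (0.0139) and -1.38 for RT1-N1 (0.00935), and their r in deviations from the group means was 0.86 to 0.90. RT1-N1 belongs to a family of near-identical genes, so its probe may read several of them.

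Of 74 further genes of the same pathways, 65 were on the array, and limma called 0 of them; at an unadjusted p under 0.05, 2 were higher and 11 were lower, beside 4.92% of all probes on the lower side. The signal to noise statistic called 13, of which 12 were lower, beside 3.2% of all probes on that side. Of a list of other end-joining factors and the Rag cofactors Hmgb1 and Hmgb2, 8 of 10 were on the array, 5 higher and 3 lower, with a median difference of 0.08. Hmgb1 and Hmgb2, chromatin proteins that help the Rag proteins bend DNA, were lower by differences of -0.55 (unadjusted p of 0.00432, adjusted p of 0.173 by limma) and -0.50 (0.0131 and 0.288). Both were called with normexp and by the signal to noise statistic, and Hmgb1 also with the slide as a random block. The Hmgb1 signals were 16.16, 16.31, 16.36 and 16.36 in Control and 15.67, 15.77, 15.90 and 15.64 in Dex, with no overlap, but Hmgb1 has many processed copies in the genome that a probe may share. Dclre1c, the Artemis nuclease that opens the hairpin ends, had signals of 12.32, 13.18, 12.89 and 13.12 in Control and 12.11, 11.55, 12.83 and 12.89 in Dex. Its difference was -0.53 (adjusted p of 0.670 by limma), and as in Lig4 its lowest array was Dex 2. Paxx, a Ku-binding factor, was higher by 0.37 with no overlap of the groups (adjusted p of 0.396 by limma), and was the 1 higher gene that the signal to noise statistic called. Dclre1c and Paxx were named after their values were seen.

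DNA break sensing genes, 9 of 12 on the array, were 2 higher and 7 lower with a median of -0.02. The smallest p among them were those of Mdc1, which binds marked chromatin at breaks, at a difference of 0.35 (unadjusted p of 0.0674 by limma), and of the ubiquitin ligase Rnf8, at -0.28 (0.0696). Rnf8 was called with normexp and by the signal to noise statistic. Genes of other break repair pathways, 14 of 16 on the array, were 6 higher and 8 lower with a median of -0.20. Palb2, the partner of the Brca proteins, differed by -0.45 (unadjusted p of 0.0224 by limma) and the exonuclease Exo1 by -0.34 (0.0605), and the signal to noise statistic called both. The medians of these lists stand beside -0.35 for the 9 genes and 0.00 for all probes, and whether they differ was not tested.

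A list of transcription factors tied to the Rag, Dntt or Ptcra genes, together with the E protein inhibitors Id2 and Id3 and the receptors Notch1 and Notch3, held the largest differences of these pathway lists. Of 20 listed, 19 were on the array, 6 higher and 13 lower with a median of -0.12. limma called none, as reported or with the replicate number as a block. In 8 of the 19 all Dex arrays lay below all Control arrays, beside 4.5% of all probes, and 6 had an unadjusted p under 0.05 on the lower side, beside 4.92%. Bcl11b, a factor of T lineage commitment, had log2 signals of 12.06, 11.79, 11.88 and 12.04 in Control and 10.92, 10.95, 11.18 and 11.23 in Dex, a gap that was wide against the spread of either group. Its difference was -0.87, with an unadjusted p of 0.000442 and an adjusted p of 0.0546 by limma. Bcl11b was called under 6 alternatives, namely normexp, dim probes left out, the slide as a random block, the block of replicates 1 and 2 against the others, the removal of Control 1, Dex 1 and Dex 2, and the signal to noise statistic. Runx1, a core lymphoid factor, had 12.85, 13.04, 13.03 and 13.20 in Control and 12.29, 12.14, 12.44 and 12.45 in Dex, a difference of -0.70 with an adjusted p of 0.113 by limma, and was called under the same alternatives other than dim probes left out. The other 6 whose groups did not overlap were Tcf12, Tcf3, Id3, Gata3, Myb and Lef1, named after their values were seen. Tcf12, an E protein, differed by -0.62 (adjusted p of 0.227 by limma), Tcf3, the E protein gene that encodes E2A, by -0.18 (0.722), and Id3, an inhibitor of E proteins, by -0.82 (0.193). Tcf12 and Id3 were called with Control 1, Dex 1 and Dex 2 left out and by the signal to noise statistic, and Tcf12 also with the slide as a random block. Myb differed by -0.45 (adjusted p of 0.363 by limma), Lef1 by -0.28 (0.574) and Gata3 by -0.57 (0.351), and the signal to noise statistic called Myb and Lef1 as well.

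E proteins bind the letters CANNTG, most often CAGNTG. In RefSeq (build GRCr8), 8 of the 9 genes had an entry for the bases before the gene start, Prkdc being the exception. The 250 bases before the start are shown for Ptcra and Rag1, which had the largest differences by the brightest probe and hold 2 CAGNTG each. They are written 5′ to 3′ on the gene's strand, with CAGNTG in capitals.
Ptcra, chr9:21716272-21716521, plus strand: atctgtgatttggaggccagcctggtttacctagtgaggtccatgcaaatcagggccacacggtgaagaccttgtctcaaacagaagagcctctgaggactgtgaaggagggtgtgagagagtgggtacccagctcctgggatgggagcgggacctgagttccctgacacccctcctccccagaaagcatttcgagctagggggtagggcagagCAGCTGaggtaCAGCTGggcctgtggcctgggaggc
Rag1, chr3:108383185-108383434, minus strand: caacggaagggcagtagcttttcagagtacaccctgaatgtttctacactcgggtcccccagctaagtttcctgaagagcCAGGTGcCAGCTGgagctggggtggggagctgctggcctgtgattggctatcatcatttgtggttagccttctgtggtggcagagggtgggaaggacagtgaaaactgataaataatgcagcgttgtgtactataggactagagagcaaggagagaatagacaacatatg
In Ptcra the first bases of the motif lie at -36 and -25 from the start, and in Rag1 at -170 and -163. Rag2, Xrcc5 and Lig4 hold 1 CAGNTG each, and Dntt, Xrcc4 and Xrcc6 hold 0. Both strands were searched, so that CAGNTG on the other strand appears as CANCTG, and every match also meets the looser CANNTG. The narrower motif is common, being found in 43.3% of 33469 promoters of this length. These matches describe sequence in these windows and carry no measurement of binding.

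**Figure D4:**
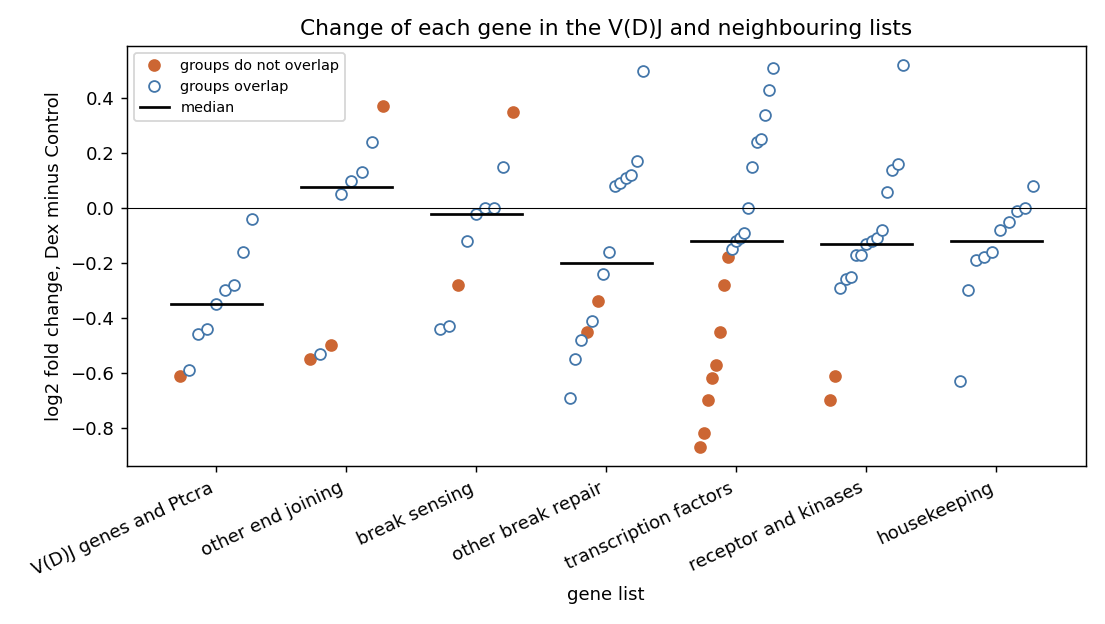
Difference of the mean log2 signal, Dex minus Control, of each gene (brightest probe) in the 9 genes described and in lists of neighbouring genes; filled points are genes whose 4 Dex and 4 Control arrays do not overlap, and bars are list medians. The 9 genes have a median of -0.35 and 1 filled point, and the transcription factor list has a median of -0.12 and 8 filled points, all below 0.

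Genes of the receptor complex and its kinases, through which the pre-TCR signals, were 15 of 16 on the array, 4 higher and 11 lower with a median of -0.13. The chains that Ptcra joins on the cell surface differed little in the mean, at -0.12 for Cd3d, 0.16 for Cd3e, -0.25 for Cd3g and -0.17 for Cd247. None of these 4, named for their place in the complex after their values were seen, was called by limma. In each of them Dex 3 and Dex 4 lay below every Control array. Dex 1 and Dex 2 lay above every Control array in Cd3d and Cd3e, and inside the Control range in Cd3g and Cd247. Cd5, a surface molecule whose level follows receptor signalling, had signals of 11.45, 11.23, 11.25 and 11.60 in Control and 10.93, 10.89, 10.37 and 10.54 in Dex, a difference of -0.70 (adjusted p of 0.197 by limma). It was called with the slide as a random block, with Control 1, Dex 1 and Dex 2 left out and by the signal to noise statistic. Cd8b was higher by 0.52 on 7 arrays with a value, since Control 1 had none (adjusted p of 0.326 by limma).

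The probes of Cd3d, Cd3g, Cd4, Cd8a and Cd8b, markers of the labelled cell type, were well above background on all 8 arrays, with Cd4 at 9.25, 9.5, 9.37 and 9.53 in Control and 9.66, 9.76, 9.06 and 9.73 in Dex. Of 10 double positive thymocyte markers 8 were on the array, 4 higher and 4 lower with a median of 0.01, with the smallest p for Cd8b and Ccr9 (0.27, unadjusted p of 0.147 by limma). Of 10 B cell markers 6 were on the array, 2 higher and 4 lower, and their sums ran from 555 to 787 in Control and from 511 to 659 in Dex. Among these, the defining gene Ms4a1 was well above background on 2 Control arrays and 0 Dex arrays, and no marker was called by limma, the smallest p belonging to Cd22 (-0.44, unadjusted p of 0.0945) and Ebf1 (-1.30, 0.126). The 10 macrophage markers, 6 higher and 4 lower, summed to 4700 to 6360 in Control and to 4400 to 8840 in Dex. None was called by limma, the smallest p being those of Mrc1, the mannose receptor (2.12, adjusted p of 0.0870), and of the complement gene C1qc (0.97, 0.327). Of 10 stromal and epithelial markers 9 were on the array, 8 higher and 1 lower, with sums of 3810 to 5340 and 4740 to 6570, and the endothelial gene Pecam1 rose by 1.36 (adjusted p of 0.0208 by limma). All 5 erythroid markers on the array were higher, with sums of 411 to 1510 and 462 to 2610 and the smallest p for Ahsp (0.58, unadjusted p of 0.0516 by limma) and Alas2 (0.64, 0.313). The part of these cell types in the differences of the 9 genes was not tested. Of 10 housekeeping genes 9 were lower, with a median difference of -0.12 and the smallest p for Ywhaz (-0.63, unadjusted p of 0.0180 by limma) and Actb (-0.30, 0.115), the same direction as in the 9 genes.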

How the data were processed

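Whole genome expression was measured on 1-color Agilent arrays. The deposited intensity of a spot came from the Feature Extraction software of the authors (version 9.5.3.1), background subtracted and detrended within the array, and the deposited scanner output refers to build rn3 and holds flags for outliers, saturation and spots well above background. A further deposited table held log2 values. Its steps (quantile normalization, median polish per probe) were recomputed here from 43379 spots without outlier spots, leaving 16 missing values, and matched it at r = 0.999999 or more. limma (version 3.58.1, R version 4.3.3) was fitted to 41012 probes without a block, two-sided, with Benjamini-Hochberg adjustment at 0.05. Quantile normalization sets every array to the same distribution, so a shift common to all genes cannot be seen.

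Members, gene lists and tests were chosen with earlier results of these data known. Named genes are all members and their probes; in each other list, genes called, or else the 2 with the smallest p; and the 3 genes of highest r to Rag1, Rag2, Dntt and Ptcra. Genes named otherwise are marked in the text. Deviations from the group means of arrays with the same replicate number in the labels correlated at 0.40, 0.13, 0.55 and 0.18. Arrays of different numbers were not compared in this way, so these values cannot show that the numbers mark pairs. The sources used here state no pairing, and values by pair only follow the numbers in the labels. Alternatives were other scalings, normexp with an offset of 50, a filter on dim probes, the deposited table, replicate and slide blocks, array weights, each array left out, the mean of a gene's probes, and the methods' signal to noise statistic, its p taken from all 70 assignments pooled over probes. Precision is limited by the number of arrays. RefSeq promoters were matched by symbol.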

Additional observations from a re-analysis of the deposited data

Results flagged for a closer look

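Of 26 sets of 4 arrays tested (13 probes in 2 groups), 1 held an array far from the others. On the second Rag1 probe (A_43_P16183), Dex 3 read 9.65 while the other Dex arrays read 10.07 to 10.11, and the gap was 0.919 of the group's whole range, above the 95% limit of Dixon's test for 4 arrays. Chance alone marks about 1 in 20 such sets. Rag1 probe 1 also had its lowest value on Dex 3, at 9.55 beside 9.67 on Dex 4.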

How the results depend on the processing

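Over the 20 alternatives the log2 difference of Ptcra stayed between -0.68 and -0.42, that of Rag1 between -1.07 and -0.41 and that of Rag2 between -0.50 and -0.22. The number of the 9 genes called was 0 in limma as reported and 1 (Ptcra) with normexp, with the slide as a random block (correlation within slides of -0.235) and with the signal to noise statistic, and 0 under the rest, with each array left out in turn included. Differences that changed sign were those of Xrcc6 (0.04 with median centring, 0.05 with the slide as a random block, from -0.18 to 0.07 with an array left out), Dntt (0.13) and Lig4 (0.09) with the slide as a fixed block, which rests on Dex 3 and Control 1 alone, and Prkdc (0.02 with the mean of its probes). With the replicate number as a block, limma called 0 of the 9 genes, all 9 stayed lower, the lowest adjusted p was 0.277 (Rag1), and 81 probes were called (75 higher, 6 lower). Of the 65 further pathway genes limma called 0 as reported, 5 with normexp, 1 with dim probes left out, 5 with the slide as a random block, 2 with a block that sets replicates 1 and 2 apart from 3 and 4, 14 without Control 1, Dex 1 and Dex 2, and 13 with the signal to noise statistic. Among all probes limma called 319 (231 higher, 88 lower), but 166 (133, 33) with 75th percentile scaling, 13 (12, 1) with median centring, 912 (497, 415) with normexp, 1 (0, 1) with the slide as a fixed block, 1838 (1116, 722) with the slide as a random block, 670 (434, 236) with that block of replicate numbers, and 4671 (2197, 2474) without Control 1, Dex 1 and Dex 2, while 2784 (1471, 1313) were called by the signal to noise statistic. With each array left out in turn this number ran from 96 (without Control 4) to 249 (without Dex 3). The blocks by replicates 1 and 2 and the joint removal of 3 arrays were added after seeing the data, and the causes of these changes were not tested. Of the 13 probes Xrcc5 had the widest interval. The array weights gave a warning that they had not converged.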

Other observations

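Of the markers of the stages before and after the double positive stage, limma called only Il7r. Il7r, the interleukin-7 receptor chain that double positive thymocytes lack, had log2 signals of 5.08, 4.90, 5.06 and 5.18 in Control and 7.20, 7.08, 6.21 and 6.21 in Dex. Every Dex array was above every Control array, and the gene rose by 1.62 (adjusted p of 0.0410 by limma). It is on both the early and the mature marker list. Of 8 early thymocyte markers 7 were on the array, 3 higher and 4 lower with a median of -0.19, and of 8 mature thymocyte markers all were on the array, 5 higher and 3 lower with a median of 0.11. Kit, the stem cell factor receptor of early thymocytes, was higher in Dex by 1.15 with no overlap of the groups (adjusted p of 0.235 by limma). The early markers with lower means were Erg (-0.95), Hes1 (-0.62), Il2ra (-0.49) and Cd44 (-0.19), and on the mature list Itgb7 (-0.71) and Cd5 (-0.70) were lower. Genes other than Il7r were named after their values were seen. Whether the stage markers and the 9 genes of V(D)J recombination changed in the same cells was not tested.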
